A study of Mus musculus with 6 samples.

Results

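The genes described here are 10 members of the integrated stress response and of serine metabolism, measured on arrays of neural stem cells from old and young mice. They are Ddit3, Trib3, Chac1, Asns and Sesn2, which are known stress targets of the transcription factor Atf4, and Phgdh, Psat1, Psph, Shmt2 and Mthfd2, which make serine and pass its carbon to folate. The members were taken as every probe set that the platform annotation names by 1 of these symbols alone, which gave 22 of the 45037 probe sets that are not controls. Another 2 probe sets of Phgdh also carry the symbol of a further gene and were not used. The old group is 3 samples of neural stem cells from C57BL/6JRj mice at 9 months of age, and the young group is 3 samples of the same cell type and strain at 6 weeks. The labels name no treatment, sort or mutation, and leave unsaid whether the replicates are different animals, cultures or only repeated samples. The p-values below therefore cover the spread among these 6 samples alone, and that spread could be technical.

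Cells that are short of amino acids, hold misfolded proteins or lack heme phosphorylate the initiation factor eIF2, which slows most translation but favours that of Atf4. Atf4 then switches on genes for amino acid synthesis, uptake and tRNA charging, and with longer stress the genes Ddit3, Trib3 and Chac1. Phgdh, Psat1 and Psph turn the glycolytic intermediate 3-phosphoglycerate into serine, and Shmt2 and Mthfd2 use serine inside mitochondria to supply one-carbon units, which dividing cells need for purines.

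Dimers of Atf4 with a C/EBP protein bind a composite element whose core is TGATGNAA (N is any base). It was searched on both strands of the RefSeq promoter windows of build GRCm38.p6, which run from 250 bases before to 50 bases after an annotated start. All 10 members had a window (11 windows, Psat1 having a pair). The element was held by 3 members, against 1219 of all 27025 genes (3.97% of all 32851 windows). The 3 are Chac1, Asns and Trib3. Ddit3 and Sesn2, also named above as known Atf4 targets, held no match, and neither did the serine and folate members. The 3 stretches are shown because these promoters share the element while their transcripts gave different results: Chac1 fell in old cells, Asns did not pass the test, and Trib3 was too dim to be tested. The stretch of Chac1 lies at chr2:119351013-119351092 on the plus strand, with the element on the opposite strand starting 193 bases before the start. That of Asns lies at chr6:7693210-7693268 on the minus strand, with the element 23 bases before the start. That of Trib3 lies at chr2:152344029-152344056 on the minus strand, with the element on the opposite strand and inside the transcript, from base 15 on. Sequences run 5′ to 3′ along the gene, and capitals mark the match.
Chac1: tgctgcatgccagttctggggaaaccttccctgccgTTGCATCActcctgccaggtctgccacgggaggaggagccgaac
Asns: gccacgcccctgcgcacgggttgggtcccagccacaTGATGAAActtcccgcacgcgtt
Trib3: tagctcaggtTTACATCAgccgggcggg
A match is a description of letters, and binding was not measured in these cells. The lack of a match in the other windows says nothing of sites elsewhere. The cyclic AMP response element TGACGTCA (1.79% of all windows) and the E-box CACGTG (7.15%) were in none of the members' windows.

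Values are log2 expression levels made with GCRMA, where 1 unit is a 2-fold difference. They share a lowest value of 2.14, which 38.3 to 40.3% of probe sets held on each array, and log2 4 stands in for background. A probe set was tested where 3 or more of the 6 arrays exceeded log2 4. Over these, old arrays correlated with each other at 0.9945 to 0.9953, young arrays at 0.979 to 0.993, and an old with a young array at 0.915 to 0.944. Young replicate 2 stood farthest from the other young arrays, and was the lowest young array for 16 of the 20 kept member probe sets and for 50.9% of all. Hybridisation controls, added in fixed amount, averaged 12.28 ± 0.098 on old and 13.24 ± 0.28 on young arrays (log2, SD, n = 3, two-sided exact permutation p = 0.1, the lowest value possible with 3 arrays a group). Their part in the results below was not tested. Of the 9 stem cell markers Sox2 averaged 13.30 ± 0.043 in old and 13.44 ± 0.076 in young cells (log2, SD, n = 3) and Slc1a3 14.06 ± 0.0067 in old and 14.07 ± 0.0077 in young cells. Of the 8 that were tested 3 fell and 0 rose, Nes with 12.30 ± 0.082 in old and 12.76 ± 0.10 in young cells, Sox9 with 13.02 ± 0.049 in old and 13.37 ± 0.029 in young cells and the Notch target Hes5 with 2.43 ± 0.30 in old and 7.78 ± 0.22 in young cells. Hes5 was thus under log2 4 on every old array and passed the filter through its young arrays alone, so it had to differ. Prom1 lay under log2 4 on all 6. Neuronal markers were lower in old cells at 4 of the 5 tested, Tubb3 with 3.83 ± 0.33 in old and 9.50 ± 0.18 in young cells, Elavl3 with 5.86 ± 0.84 in old and 9.04 ± 0.078 in young cells, Elavl4 with 10.35 ± 0.28 in old and 11.23 ± 0.11 in young cells and Snap25 with 3.72 ± 0.18 in old and 4.85 ± 0.45 in young cells. Snap25 also passed the filter through its young arrays alone, so it had to differ as well. Map2, the brightest, did not pass and makes up most of that list's linear sum (15469 to 16390 on old and 17059 to 17262 on young arrays). Dcx was under the filter, and Rbfox3 and Stmn2 lay under log2 4 on all 6. Astrocyte markers went both ways, with Gja1 (13.94 ± 0.018 in old and 12.58 ± 0.078 in young cells), S100b (10.03 ± 0.17 in old and 7.10 ± 0.42 in young cells) and Aqp4 higher, Slc1a2 lower (11.22 ± 0.31 in old and 11.87 ± 0.091 in young cells), and Gfap and Aldoc not passing. Their linear sum was 33601 to 36685 on old and 26607 to 27218 on young arrays. Aldoc and Gja1, the brightest of the list, make up most of this sum, and its rise rests on Gja1. In the oligodendrocyte lineage the progenitor markers Cspg4 (6.14 ± 0.17 in old and 8.13 ± 0.083 in young cells) and Pdgfra (7.18 ± 0.45 in old and 8.62 ± 0.19 in young cells) fell, Olig2 did not pass, and Mbp, Mog and Sox10 lay under log2 4 on all 6 arrays. So did all 7 markers of microglia and macrophages, 5 of 6 of endothelium, 6 of 7 of mesenchymal and mural cells and 2 of 4 of ependyma. Of the remaining markers, the endothelial Flt1 and the mural Acta2 fell (log2 change, old minus young, -1.22 and -1.33). In ependyma Ccdc153 fell (-1.69) and Foxj1 rose (2.45). Foxj1 passed the filter through its old arrays alone, so it had to differ. Over all genes 22.0% rose and 18.5% fell, beside which these marker counts stand. In such bulk samples, fewer cells of a type and less RNA per cell cannot be told apart, and the part of cell makeup in the results was not tested.

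Old cells were set against young cells to see which of these transcripts differ with age. Of the 22 member probe sets 20 passed the filter, covering 9 genes, and Trib3 was not tested. In limma, with adjustment over all 19858 kept probe sets, 8 of the 20 were lower in old cells at an adjusted p under 0.05, against 16.5% of all kept probe sets. In the other direction 1 of the 20 was called, against 20.1% of all. With each gene taken at its kept probe set of highest mean, 4 of the 9 genes fell (Ddit3, Chac1, Shmt2 and Mthfd2), against 18.5% of all 10050 genes, and 0 rose (also 0 at an unadjusted p under 0.05), against 22.0% of all, while the dimmer probe set of Sesn2 passed as higher. Chac1 passed the filter through its young arrays alone, so it had to differ. Without it, 7 of 19 probe sets and 3 of 8 genes fell. The old and young arrays did not overlap for 12 probe sets with the old lower (background 25.9%) and 2 with the old higher (background 29.4%). The median log2 change was -0.12 over the 9 genes, -0.11 without Chac1, and 0.012 over all genes.

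**Figure D1:**
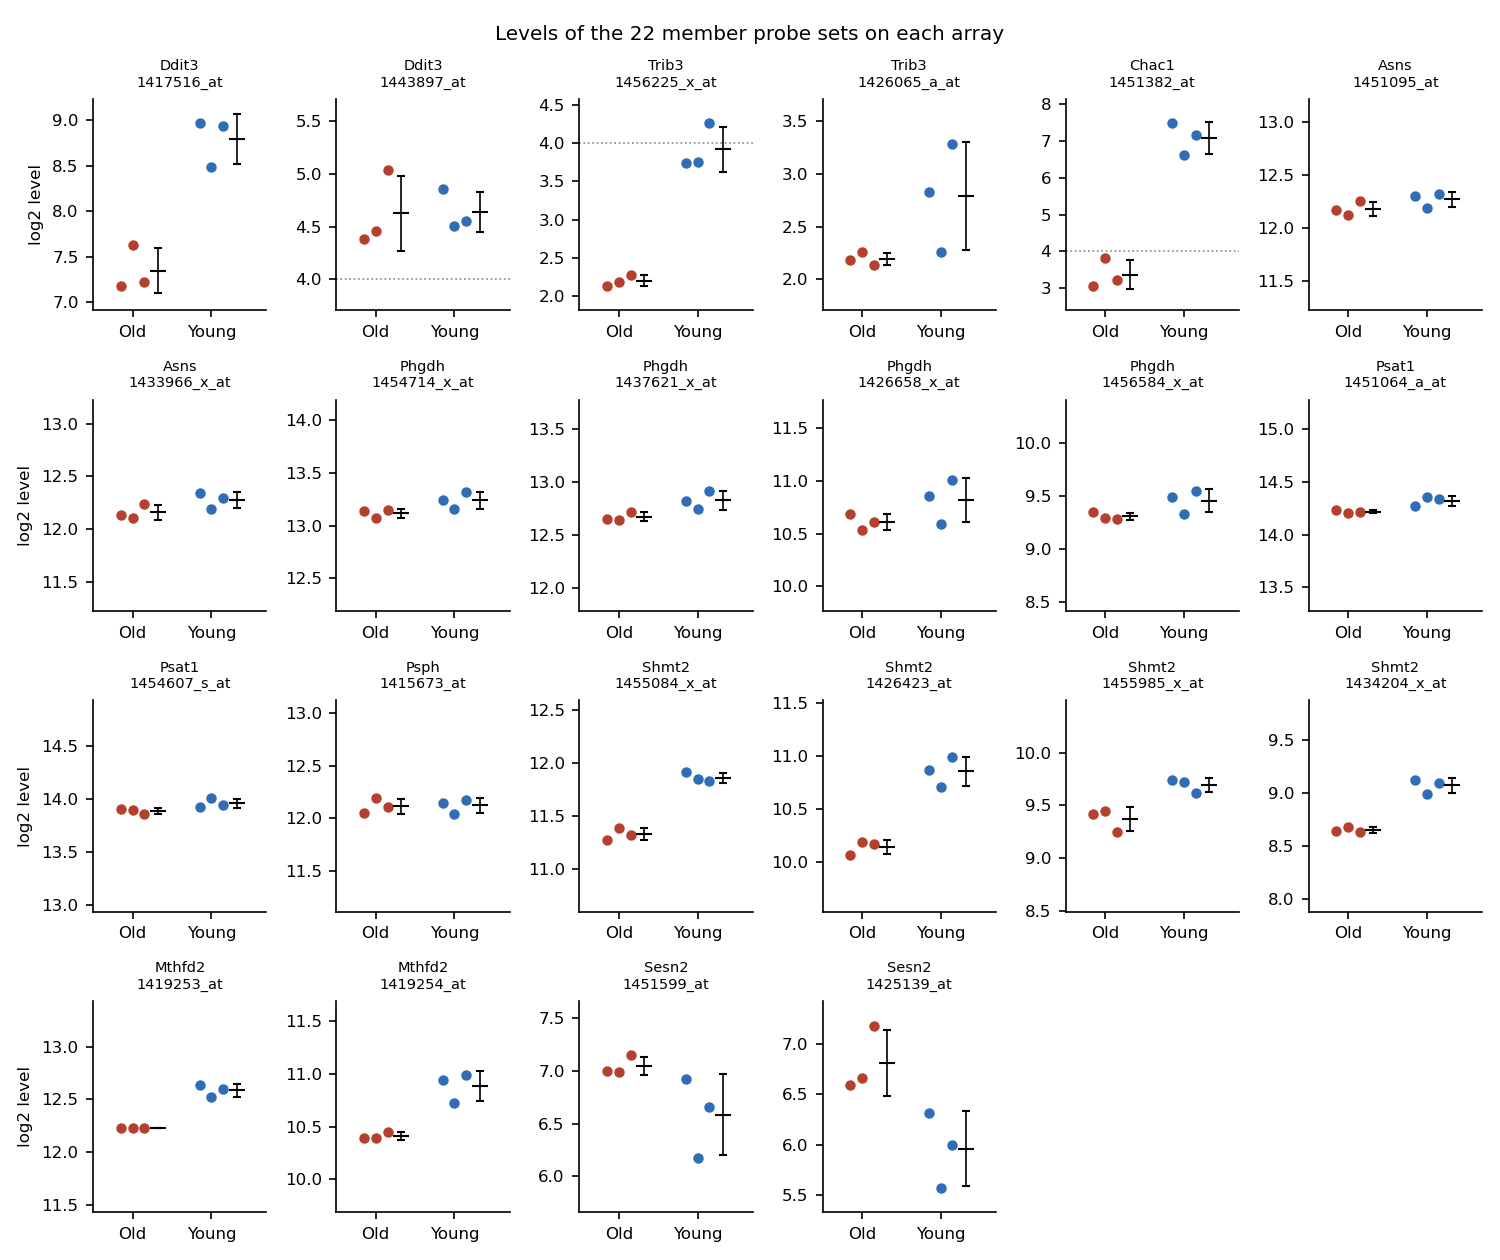
Log2 level of each of the 22 member probe sets on the 3 old (left, red) and 3 young arrays (right, blue), with the mean and SD beside the points and a dotted line at log2 4 where it falls in range. Chac1 lies under log2 4 on every old array and at 6.62 or above on every young array, whereas for Asns, Phgdh, Psat1 and Psph the 2 ages lie close together.

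Of the stress effectors, Chac1 was at background in old cells and Ddit3 fell. Chac1, an enzyme that breaks down glutathione inside the cell, had log2 levels of 3.06, 3.82 and 3.22 in old cells, against 7.49, 6.62 and 7.16 in young cells. All old arrays thus lay under log2 4 and all young arrays far above it, with means of 3.36 ± 0.40 in old and 7.09 ± 0.44 in young cells (SD, n = 3). Its level was at least 8.52-fold lower in old cells, with the old arrays set at log2 4 (limma adjusted p = 0.000724, which lends no support of its own, since the filter kept Chac1 for its young arrays). Ddit3, also called CHOP, a C/EBP family factor that promotes cell death under lasting stress, had 7.18, 7.63 and 7.22 in old cells and 8.97, 8.48 and 8.94 in young cells at its brighter probe set. The groups did not overlap, with means of 7.34 ± 0.25 in old and 8.80 ± 0.27 in young cells (SD, n = 3). Ddit3 was 2.74-fold lower in old cells (log2 change -1.45, 95% interval -1.92 to -0.98, limma adjusted p = 0.00342). Its other probe set read close to background, with 4.39, 4.46 and 5.03 in old and 4.86, 4.51 and 4.55 in young cells, and did not pass (log2 change -0.015, 95% interval -0.52 to 0.49, limma adjusted p = 0.962). The call of the brighter Ddit3 probe set held on leaving out each array in turn, with adjusted p of 0.00371 to 0.0176.

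Trib3, a pseudokinase that Atf4 and Ddit3 induce and that dampens their activity in turn, was dim at both of its probe sets. The brighter one had 2.14, 2.19 and 2.28 in old cells, against 3.74, 3.76 and 4.26 in young cells, so 1 young array exceeded log2 4. The other had 2.18, 2.26 and 2.14 in old and 2.83, 2.26 and 3.28 in young cells, with overlapping groups. Both lay under the filter, and no fold is given because old and young means were both under log2 4. The related pseudokinases Trib1 and Trib2 were well above background. Trib2 fell slightly (log2 change -0.20, limma adjusted p = 0.0166, a call that did not hold without old replicate 1 or 3, where the adjusted p reached 0.0599), and Trib1 did not pass (log2 change -0.19, adjusted p = 0.0645).

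Sesn2, a leucine-binding sestrin that restrains the growth kinase complex mTORC1 and is also a target of p53, had the opposite sign. Its dimmer probe set had 6.59, 6.66 and 7.19 in old cells and 6.31, 5.57 and 6.00 in young cells, with no overlap, and was 1.81-fold higher in old cells (log2 change 0.85, 95% interval 0.23 to 1.48, limma adjusted p = 0.0453). Of the 6 fits that each leave out an array, the call held in 1, without young replicate 1 (adjusted p = 0.0368), and the adjusted p reached 0.113 in the others. The brighter probe set had 6.99, 6.99 and 7.14 in old and 6.92, 6.17 and 6.66 in young cells and did not pass (log2 change 0.46, 95% interval -0.036 to 0.95, adjusted p = 0.125). At both probe sets young replicate 2 was the lowest array. Among the other sestrins, Sesn3 rose, with 12.26, 12.27 and 12.28 in old and 11.82, 11.94 and 11.72 in young cells (log2 change 0.44, limma adjusted p = 0.00646), and Sesn1 had a log2 change of 0.23 (adjusted p = 0.106). Of the 10 measured genes of sestrins and of the GATOR complexes, through which sestrins act, 1 rose (Sesn3, whose dimmer probe set did not pass) and 1 fell, the GATOR subunit Depdc5 at its brighter probe set (log2 change -0.74, limma adjusted p = 0.0460), whose call held in 1 of those 6 fits, without old replicate 2, with adjusted p of 0.0189 to 0.116 over the 6. The list's median was 0.021, against 0.012 over all genes, of which 22.0% rose and 18.5% fell.

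Asns, which makes asparagine and is a standard readout of Atf4 activity, had 12.17, 12.12 and 12.25 in old and 12.30, 12.19 and 12.32 in young cells. The groups overlapped, and the log2 change of -0.087 did not pass (95% interval -0.24 to 0.069, limma adjusted p = 0.317). Its other probe set gave -0.12 (95% interval -0.28 to 0.045, adjusted p = 0.208).

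**Figure D2:**
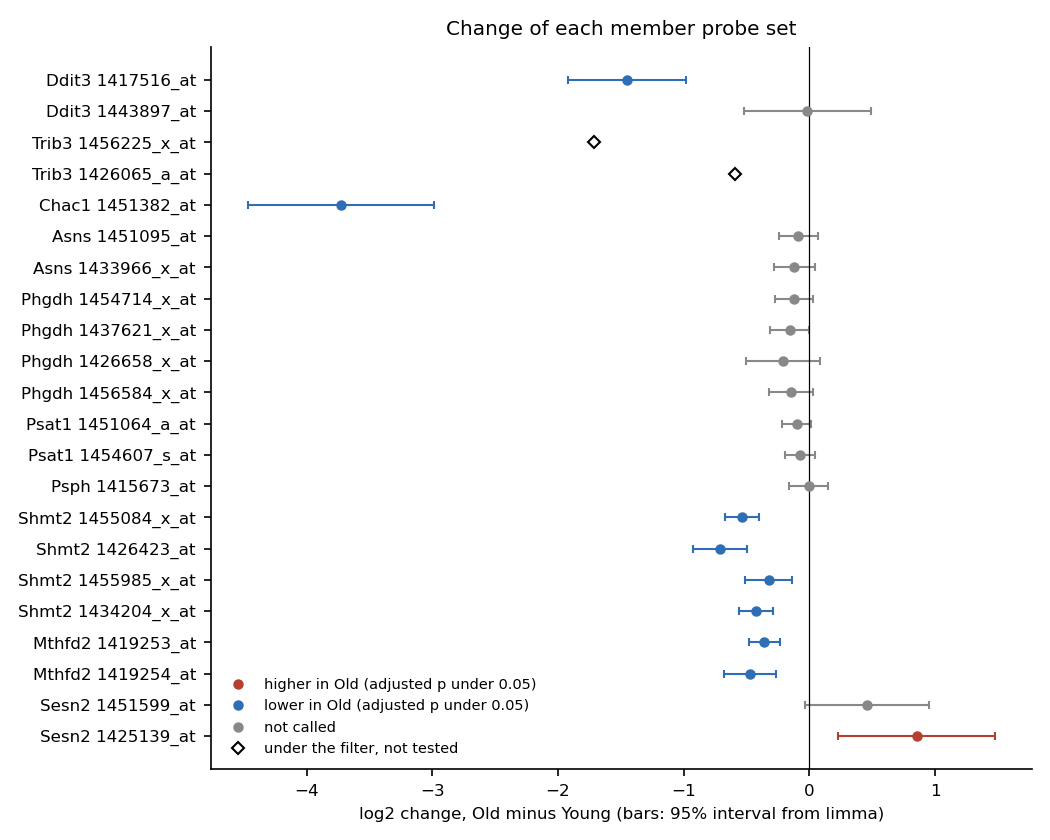
Log2 change of each member probe set, old minus young, with its 95% interval from limma; red is higher and blue lower in old cells at an adjusted p under 0.05, grey did not pass, and open diamonds mark Trib3, which was under the filter. The intervals of the brighter Ddit3 probe set and of all Shmt2 and Mthfd2 probe sets lie below 0, those of Asns, Phgdh, Psat1 and Psph include 0, and Chac1 had to differ by the filter.

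Of the 3 enzymes that make serine, 0 passed at any probe set in the limma fit used throughout. Both members that use serine carbon in mitochondria fell, and the difference between these sets was not tested. With array weights the Phgdh probe set next in brightness to the brightest passed as lower (limma adjusted p = 0.0451). With a trended robust variance it passed too (0.0352), as did the brighter Psat1 probe set (0.0135). Phgdh, which oxidises 3-phosphoglycerate and commits carbon to serine, had 13.14, 13.07 and 13.15 in old and 13.24, 13.16 and 13.32 in young cells at its brightest probe set. The old arrays all lay below the young arrays, but by little, and the log2 change of -0.12 did not pass (95% interval -0.27 to 0.026, limma adjusted p = 0.162). The 4 probe sets of Phgdh gave log2 changes of -0.21 to -0.12 and adjusted p of 0.107 to 0.222. All 4 carry the suffix _x_at, which marks probe sets whose probes may also read related sequences. Without young replicate 2, 2 of the 4 passed as lower (adjusted p = 0.0373 and 0.0412). Psat1, the transaminase of the next step, had 14.23, 14.20 and 14.22 in old and 14.27, 14.35 and 14.33 in young cells, and its log2 change of -0.10 did not pass (95% interval -0.22 to 0.016, limma adjusted p = 0.146). Its other probe set gave -0.073 (adjusted p = 0.265). At both probe sets of Psat1 the old arrays all lay below the young arrays, again by little. Psph, the phosphatase that releases serine, had 12.05, 12.19 and 12.10 in old and 12.15, 12.04 and 12.18 in young cells. Here the groups overlapped, and the log2 change was -0.0060 (95% interval -0.16 to 0.15, limma adjusted p = 0.949).

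Shmt2, the mitochondrial enzyme that splits serine into glycine and a one-carbon unit on folate, fell at all 4 of its probe sets. At the brightest one it had 11.28, 11.39 and 11.32 in old cells, against 11.91, 11.85 and 11.83 in young cells. No old array reached a young one, and the level was 1.45-fold lower in old cells (log2 change -0.54, 95% interval -0.67 to -0.40, limma adjusted p = 0.00154). Over the 4 probe sets the log2 change ran from -0.71 to -0.32, with adjusted p of 0.00154 to 0.0233, and 3 of them carry the suffix _x_at. The probe set without the suffix had the largest of the 4 changes, with 10.07, 10.19 and 10.17 in old and 10.87, 10.71 and 10.99 in young cells. The call of the probe set with the smallest change was lost without old replicate 1 or 3 and without young replicate 1 or 2 (adjusted p of up to 0.0646), while the other 3 kept theirs on leaving out each array. Mthfd2, which carries the one-carbon unit on to 10-formyl-tetrahydrofolate in mitochondria, fell at both of its probe sets. It had 12.23, 12.23 and 12.22 in old and 12.64, 12.52 and 12.60 in young cells at the brighter one (log2 change -0.36, 95% interval -0.48 to -0.24, limma adjusted p = 0.00417). At the dimmer one it had 10.39, 10.39 and 10.45 in old and 10.95, 10.72 and 10.99 in young cells (log2 change -0.47, 95% interval -0.68 to -0.26, adjusted p = 0.00949). The groups did not overlap at either, and both calls held on leaving out each array.

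Further enzymes of folate metabolism moved in both directions. Of 17 measured genes of serine, glycine and one-carbon metabolism other than the members, 3 fell and 5 rose, against 18.5% and 22.0% of all. Their median log2 change was 0.012, against 0.012 over all genes. When arrays were left out in turn, 2 to 3 fell, and 3 rose in every such fit but that without young replicate 1, where 4 did. Mthfd1l, which releases formate from the mitochondrion, fell, with 10.98, 11.01 and 10.81 in old and 11.64, 11.55 and 11.70 in young cells (log2 change -0.70, limma adjusted p = 0.00203). Aldh1l2, which oxidises 10-formyl-tetrahydrofolate in mitochondria, fell with a log2 change of -0.51 (adjusted p = 0.0174), a call lost without old replicate 3 (adjusted p = 0.0529). The cytosolic counterpart of Shmt2, Shmt1, fell as well, with 11.00, 11.01 and 10.87 in old and 11.50, 11.35 and 11.52 in young cells (log2 change -0.50, limma adjusted p = 0.00488). Mthfd1, the cytosolic enzyme that takes up formate into folate, had a log2 change of 0.012 (95% interval -0.14 to 0.16, adjusted p = 0.884), and Mthfd2l, the close relative of Mthfd2, one of -0.092 (95% interval -0.27 to 0.085, adjusted p = 0.348). The mitochondrial folate carrier Slc25a32 rose by 0.53 on the log2 scale (adjusted p = 0.0103) and Aldh1l1, the cytosolic relative of Aldh1l2 and a known astrocyte marker, by 0.86 (adjusted p = 0.0101). The astrocyte markers given above went both ways, and their part in this was not tested. Sfxn1, which imports serine into mitochondria in human cells, did not pass (log2 change 0.057, adjusted p = 0.325). Of 6 genes of de novo purine synthesis, which uses formyl groups from folate, limma called 0 at the brightest probe set, against 1 at an unadjusted p under 0.05 (Gart, log2 change -0.27, adjusted p = 0.0767). Without young replicate 2, 1 of the 6 fell, and a dimmer probe set of Paics was lower in the fit over all arrays (log2 change -0.22, adjusted p = 0.0221).

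**Figure D3:**
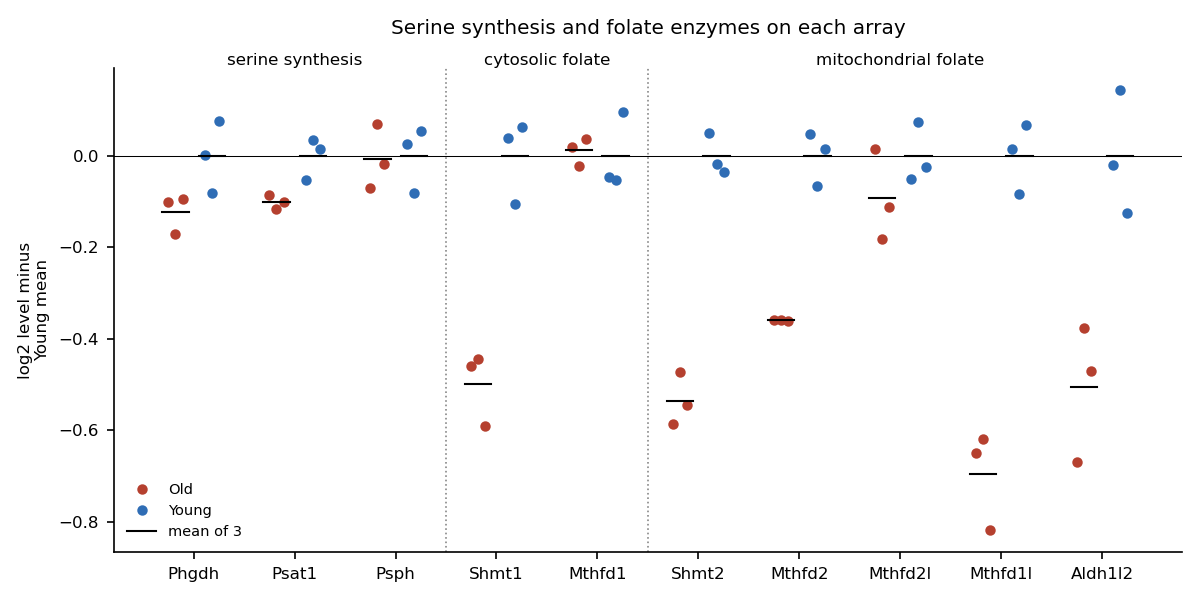
Log2 level on each array minus the mean of the 3 young arrays, for enzymes of serine synthesis, cytosolic folate and mitochondrial folate metabolism (each gene at its kept probe set of highest mean), with old arrays in red at left, young arrays in blue at right and bars for the mean of 3. The old means of Mthfd2, Shmt1, Aldh1l2, Shmt2 and Mthfd1l lie -0.36 to -0.70 from the young means with no overlap of arrays. The old arrays of Phgdh and Psat1 also lie below the young without overlap, at -0.12 and -0.10, while Psph, Mthfd1 and Mthfd2l overlap.

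Upstream of these genes, Atf4 itself was high at both ages. It had 13.05, 13.09 and 13.11 in old and 13.24, 13.21 and 13.27 in young cells at its brightest probe set, with no overlap, a small fall (log2 change -0.16, limma adjusted p = 0.0448) whose call held in none of the 6 fits with an array left out (adjusted p of 0.0537 to 0.129). Its dimmer probe set did not pass (log2 change -0.16, adjusted p = 0.154). Atf4 is known to be controlled largely at translation, and the protein was not measured. Of 6 measured genes of Atf4 and its partner factors 3 fell and 1 rose (median -0.17), against 18.5% and 22.0% of all genes. The 3 that fell were Atf4, Trib2 and the heterodimer partner Cebpg (log2 change -0.19). All 3 lost their call without old replicate 1 and without old replicate 3, while 1 or 2 kept it without each other array. Nupr1, a small stress-induced chromatin protein, rose, with 9.71, 10.11 and 10.55 in old and 9.17, 8.58 and 9.29 in young cells (log2 change 1.11, limma adjusted p = 0.0311), a call that held in 1 of the 6 fits with an array left out, that without old replicate 1 (adjusted p of 0.0314 to 0.0877 over the 6). Atf5, another stress factor controlled at translation, had a log2 change of 0.0092 (95% interval -0.27 to 0.28, adjusted p = 0.955), with a sign that turned when arrays were centred on their median. Atf3 and Cebpb lay under log2 4 on all 6 arrays. Of 14 measured genes for eIF2 kinases, eIF2B and the eIF2 phosphatase 4 rose and 0 fell, against 22.0% and 18.5% of all genes. At an unadjusted p under 0.05, 1 was lower. The median log2 change was -0.015, against 0.012 over all genes. The count that rose was 2 without old replicate 1, 2 or 3 or young replicate 2, and the count that fell was 1 without young replicate 1 and 2 without young replicate 2. Eif2ak2, the kinase PKR that senses double-stranded RNA, rose, with 10.47, 10.32 and 10.31 in old and 9.76, 9.89 and 9.67 in young cells (log2 change 0.60, limma adjusted p = 0.00393). Impact, an inhibitor of the amino acid sensing kinase Eif2ak4, rose by 0.44 (log2, adjusted p = 0.00655), though its dimmer probe set did not pass. The others that rose were Dnajc3 (log2 change 0.39, limma adjusted p = 0.0229) and the kinase Eif2ak1 (0.23, adjusted p = 0.0464). Their calls were lost in 4 and 5, respectively, of the 6 fits with an array left out. The endoplasmic reticulum kinase Eif2ak3 (log2 change -0.18, adjusted p = 0.175), Eif2ak4 (0.078, adjusted p = 0.507) and Ppp1r15a (-0.085, adjusted p = 0.626), which Atf4 induces to reverse eIF2 phosphorylation, did not pass.

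Over all genes 22.0% rose and 18.5% fell, beside which the following counts stand. Among other known targets of Atf4 more fell than rose. Of 13 measured genes in this list 6 fell and 1 rose, with a median log2 change of -0.15, against 0.012 over all genes, and 4 to 6 fell on leaving out each array. Stc2, a secreted glycoprotein induced by stress, fell most within the list, with 5.35, 5.58 and 5.30 in old and 7.81, 7.50 and 7.99 in young cells (log2 change -2.36, limma adjusted p = 0.000346). Eif4ebp1, a brake on cap-dependent translation, had 10.39, 10.70 and 10.71 in old and 11.79, 11.88 and 11.80 in young cells and was 2.34-fold lower in old cells (adjusted p = 0.000787). Vldlr, a lipoprotein and reelin receptor, was 2.14-fold lower (adjusted p = 0.00162), and Ero1a, the oxidase of protein folding in the endoplasmic reticulum, 2.06-fold lower (adjusted p = 0.00243).

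Cytosolic tRNA synthetases and the amino acid transporters listed as targets of Atf4 also fell more often than they rose. Of 18 measured cytosolic aminoacyl-tRNA synthetases, which load amino acids onto tRNA, 11 fell and 1 rose, with a median log2 change of -0.26, against 0.012 over all genes. The number that fell was 4 without old replicate 2, 12 without young replicate 2 and 6 without old replicate 1 or 3 or young replicate 1 or 3. Cars, the enzyme for cysteine, had 6.68, 6.52 and 6.28 in old and 7.81, 7.35 and 8.05 in young cells (log2 change -1.24, limma adjusted p = 0.00785). Iars, for isoleucine, fell with a log2 change of -0.56 (adjusted p = 0.000646) and Mars1, for methionine, of -0.57 (adjusted p = 0.00193). The transporter list holds only transporters taken as targets of Atf4, not amino acid transporters at large. Of its 8 measured genes 5 fell and 1 rose (median -0.25), with 3 to 5 falling on leaving out each array, the 3 without old replicate 2 or 3. The glycine transporter Slc6a9 fell with a log2 change of -0.54 (adjusted p = 0.00154), the cationic amino acid transporter Slc7a1 of -0.40 (adjusted p = 0.00694) and the neutral amino acid transporter Slc1a5 of -0.50 (adjusted p = 0.0117, a call lost with a trended robust variance, at 0.0855). The cystine importer Slc7a11 went the other way, with 5.50, 5.55 and 5.63 in old and 4.67, 4.80 and 4.68 in young cells (log2 change 0.84, limma adjusted p = 0.000586), while its partner chain Slc3a2 did not pass (0.26, adjusted p = 0.0617), though it did as higher with that variance (adjusted p = 0.0129).

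Glutathione, the substrate of Chac1, is made from glutamate, cysteine and glycine. Of 8 measured genes of glutathione synthesis and turnover 3 rose and 0 fell (also 0 lower at an unadjusted p under 0.05), against 22.0% and 18.5% of all genes. The median log2 change was 0.10, against 0.012 over all genes. On leaving out each array 2 to 3 rose, and Ggct, 1 of the 3, lost its call without old replicate 2 or 3. Cbs, which leads from homocysteine and serine to cysteine, had 11.48, 11.57 and 11.81 in old and 9.68, 9.62 and 10.01 in young cells, with no overlap, and was 3.60-fold higher in old cells (limma adjusted p = 0.000636). Gclm, the modifier subunit of the enzyme that starts glutathione synthesis, rose by 0.41 on the log2 scale (adjusted p = 0.00522). Chac2, the relative of Chac1 with low constant activity, did not pass (log2 change -0.072, 95% interval -0.24 to 0.098, adjusted p = 0.441).

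**Figure D4:**
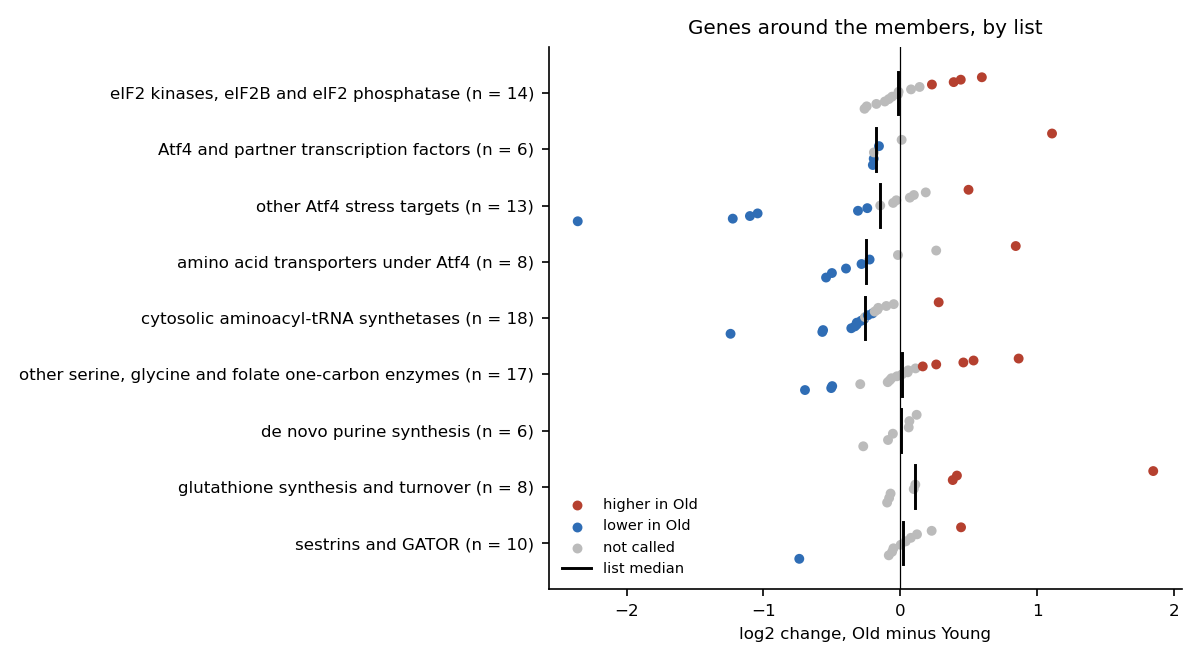
Log2 change, old minus young, of each measured gene in the 9 lists around the members (1 point per gene at its kept probe set of highest mean), red where higher and blue where lower in old cells at a limma adjusted p under 0.05, with the list's median as a black bar and n the genes measured. Most tRNA synthetases lie left of 0, and the glutathione list holds red but no blue points.

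The genes whose 6 values lay closest to those of Ddit3, after each gene's mean was subtracted, were Pter, Dyrk3 and Fam83d, at a root mean square difference of 0.073, 0.13 and 0.14 log2 units. For Phgdh they were Dnttip1, Bap1 and Mief1, at 0.010 to 0.015. With 2 groups of 3 arrays many genes can lie this close, so this is a description of these arrays.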

How the data were processed

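Each of the 6 neural stem cell samples was hybridised to 1 Affymetrix mouse array. Per the labels' protocols, total RNA came from a NucleoSpin XS extraction and was biotin-labelled with a NuGEN Encore kit. The authors deposited log2 values for every probe set, which GCRMA produced per the submitters' processing notes. The program's version and settings are not stated there. GCRMA pulls dim probe sets toward a common low value, which understates their spread and makes folds against them uncertain.

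Names came from the platform annotation, brought up to date by Entrez identifier with the RefSeq genes of GRCm38.p6 (99.4% matched, 0 symbols changed). The filter kept 19858 probe sets (3 or more arrays over log2 4). The 2 ages were compared by lmFit and eBayes of limma (version 3.58.1, R 4.3.3), two-sided and without a block. P-values were adjusted over the kept probe sets by Benjamini and Hochberg's method, with calls under 0.05. Each gene is represented by its brightest kept probe set. Precision is limited by the number of arrays. The procedure was run on simulated data with independent noise and few changed probe sets, which does not show how it behaves on these arrays.

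Members, lists and naming rule were all chosen with earlier results of these data known. The rule took every member, 4 genes of lowest p per list, and set regulators and relatives of the members, of which some are described. Other filters, scalings, thresholds and variance models, array weights, a replicate block and the omission of single arrays were tried as alternatives. Plots used matplotlib 3.10.9 (Python 3.11.15).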

Additional observations from a re-analysis of the deposited data

How the results depend on the processing

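The calls of the brighter Ddit3 probe set, of both Mthfd2 probe sets and of 3 of 4 Shmt2 probe sets kept their direction and passed under every alternative that tested them. The count of member probe sets lower in old cells moved by less than 1.5 times throughout. The count higher in old cells, 1 for Sesn2, was 0 without the filter, after quantile normalization again, with the replicate block and at an adjusted p under 0.01, and ran from 0 to 2 on leaving out 1 array. For genes it was 1 when a gene's probe sets were averaged and 0 to 1 on leaving out 1 array. At an adjusted p under 0.01, 3777 of all probe sets were called, against 7268. Without the filter, Trib3 was tested, with adjusted p = 0.00369 at its brighter and 0.202 at its dimmer probe set. Its means lay under log2 4 at both ages and its old arrays near the lowest value, which understates their spread. These p-values therefore lend no support of their own. Array weights called lower the Phgdh probe set next in brightness to the brightest (adjusted p = 0.0451), and the trended robust variance called it (adjusted p = 0.0352) and the brighter Psat1 probe set (adjusted p = 0.0135). With that variance Gart passed as lower, Slc3a2, Sesn1 and Gsr as higher, and Slc1a5 was lost. Chac1 was not tested where all 6 arrays had to exceed log2 4.

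Signs turned for changes near 0 that did not pass. The dimmer Ddit3 probe set ran from -0.22 to 0.10 on leaving out 1 array and was 0.056 after quantile normalization. Psph ran from -0.046 to 0.026, Atf5 from -0.11 to 0.084 and Mthfd1 from -0.013 to 0.060. Atf5 was -0.0011 with centred arrays, and Atf5 and Mthfd1 were -0.029 and -0.019 with array weights. Same-numbered old and young arrays did not deviate together (r = -0.16, -0.11 and 0.16 across probe sets), so the numbers are not taken as pairs. With the replicate block, 5600 probe sets were called, Sesn2 was lost (adjusted p = 0.0720), 7 tRNA synthetases fell in place of 11, 0 of Atf4 and its partners in place of 3, and 3 one-carbon genes rose in place of 5; no further call on a member changed. At an adjusted p under 0.01, 4 tRNA synthetases and 2 transporters fell and 2 eIF2 genes and 1 one-carbon gene rose. The causes were not tested.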
